A study of Mus musculus with 12 samples.

Results

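Untreated dorsal skin of 1-year-old mice was compared with untreated dorsal skin of 4-month-old mice, to ask how the genes of this study differed between middle-aged and young adult skin that the radiofrequency device had not been applied to. The comparison used 6 of the 12 libraries of the series, 3 per age, and each library came from a different mouse. Of the 465 genes in the deposited table, the 143 with a mean count of 10 or more over these 6 libraries were tested, and the other 322 were too low to test, 34 of them with no count in any of the 6. The mice were male ICR mice, an outbred strain, so that animals of the same age also differed in their genes. Each mouse carried a second dorsal area that was treated with the device under anaesthesia during 1 week, and the untreated area lay beside it. The untreated skin is therefore skin of an animal that was treated elsewhere, at both ages, and hair had been removed before the experiment. The samples sequenced had been picked by how the tissue looked on pathology and by how intact their RNA was. Whole skin was sequenced, so fewer cells of a type and less RNA per cell cannot be told apart in any value below.

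The epidermis renews itself from a basal layer, and its cells exchange one set of keratins for another as they move upwards. In the granular layer they make loricrin, filaggrin and late cornified envelope proteins, many of which are encoded side by side in the epidermal differentiation complex, and proteases and their inhibitors then control how the horny layer is shed. Immune cells, fat, striated muscle of the panniculus carnosus, nerves and hair follicles lie in the same piece of skin. With age, skin is known to lose dermal collagen and to gain inflammatory cells, and the genes listed here reach those processes only in part.

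The table is a selection, and this bears on every count below. All 465 listed genes differed at least 1.2-fold in mean FPKM (fragments scaled to transcript length and to the mapped fragments of the library) between treated and untreated 4-month-old skin, 272 being higher and 193 lower after treatment, so the untreated 4-month-old libraries took part in choosing the genes. Of the 95 tested genes that were listed as higher in treated 4-month-old skin, 70 were also higher in untreated 1-year-old than in untreated 4-month-old skin, with a median log2 fold change of 0.44. Of the 48 listed as lower, 7 were higher, with a median of −0.58. The direction of an age difference thus mostly followed the direction for which a gene had been listed, and a low or high value in the untreated 4-month-old libraries moves both.

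Library totals, derived from the deposited counts and FPKM, were 21690932 to 24659924 fragments in the 6 libraries. The listed genes held 1.14% of the library in 1-year-old replicate 1, against 0.478% and 0.585% in the other 1-year-old libraries and 0.474%, 0.417% and 0.358% in the 4-month-old libraries. That library stood apart. Calls that changed without it, and the medians of gene groups printed below, are given both ways. Of the markers of 17 skin cell types, 15 cell types had none in the table. All 4 markers of suprabasal keratinocytes (*Krt1*, *Krt10*, *Lor* and *Flg*) were listed and had counts in every library, as did the plasma cell gene *Jchain*, but markers of fibroblasts, fat, muscle, vessels, macrophages and neutrophils were not listed, so the make-up of the samples could not be checked.

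Some of the epidermal genes below lie in the epidermal differentiation complex, and the 250 bases before the RefSeq start of 4 of them are shown. These neighbours on chromosome 3 all had positive age differences, as had all 15 tested epidermal genes on any chromosome. The first pair were called different between the ages, and the second pair hold both of the motifs searched. Of the 15 tested epidermal genes, 7 lie on chromosome 3, 6 of them within 2 Mb. Capitals mark a TATA box, spelled TATAAA, and a site of the AP-1 type, written with any base in its middle as TGANTCA. Both were searched on both strands and do not overlap each other here. Sequences are from RefSeq, build GRCm38.p6, written 5′ to 3′ along the gene's strand.
*Lce1m* (chr3:93019062-93019311, minus strand): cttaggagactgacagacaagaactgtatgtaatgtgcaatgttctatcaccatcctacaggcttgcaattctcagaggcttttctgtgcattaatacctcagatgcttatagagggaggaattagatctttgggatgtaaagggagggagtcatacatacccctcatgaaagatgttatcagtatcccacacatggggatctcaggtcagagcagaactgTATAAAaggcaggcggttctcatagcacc
*Hrnr* (chr3:93319499-93319748, plus strand): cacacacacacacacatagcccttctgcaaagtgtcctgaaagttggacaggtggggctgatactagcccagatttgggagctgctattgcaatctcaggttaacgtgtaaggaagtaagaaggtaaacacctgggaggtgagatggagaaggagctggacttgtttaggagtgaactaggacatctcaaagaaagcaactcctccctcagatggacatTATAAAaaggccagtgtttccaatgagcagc
*Lor* (chr3:92083143-92083392, minus strand): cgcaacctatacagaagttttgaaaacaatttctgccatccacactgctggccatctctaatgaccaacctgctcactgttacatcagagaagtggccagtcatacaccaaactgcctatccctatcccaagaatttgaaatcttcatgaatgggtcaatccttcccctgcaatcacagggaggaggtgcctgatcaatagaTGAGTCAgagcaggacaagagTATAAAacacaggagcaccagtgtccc
*Flg* (chr3:93273296-93273545, plus strand): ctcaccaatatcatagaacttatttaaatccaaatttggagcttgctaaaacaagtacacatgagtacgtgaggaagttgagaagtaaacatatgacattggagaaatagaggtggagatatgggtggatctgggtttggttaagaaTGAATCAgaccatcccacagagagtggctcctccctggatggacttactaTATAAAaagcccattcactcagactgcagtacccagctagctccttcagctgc
Counted from the RefSeq start, TATAAA began 29 bases before it in *Lce1m*, 31 in *Hrnr*, 27 in *Lor* and 53 in *Flg*, and the AP-1 type letters began 48 bases before it in *Lor* and 103 in *Flg*. For *Flg* the RefSeq start lies 23 bases downstream of the start in the annotation used for gene coordinates, from which TATAAA began 30 and the AP-1 type letters 80 bases upstream. Of the 15 epidermal genes, 12 matched a promoter, and 7 of these 12 held TATAAA, against 13.0% of 27025 promoters of that length. TGANTCA was in 5 of the 12 and in 6.87% of all promoters. These matches describe the letters in a window and were not tested for binding.

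Of the 143 tested genes, 21 were differentially expressed genes (DEGs), which differed 1.2-fold or more with p under 0.05, before any adjustment, in edgeR's quasi-likelihood test. In 1-year-old skin 13 were higher (9.09% of the tested genes) and 8 were lower (5.59%). After Benjamini-Hochberg adjustment over the 143 genes, edgeR called 1 gene, *Cd300ld5* (0.699%). The median log2 fold change over all tested genes was 0.16 (quartiles −0.57 and 0.99), with 77 genes above 0 and 66 below. In 20 genes every 1-year-old library was above every 4-month-old library (14.0%), and in 11 every one was below (7.69%). With 3 animals per age, an exact permutation test of a single gene cannot go below p = 0.1, so the calls rest on the spread that edgeR shares across genes. The filter on low counts works on the mean of both ages, and 27 of the 143 tested genes had a mean count under 10 in one age. Those genes entered the test only through the age in which they were high, and 9 of the 21 DEGs were among them. The DEGs are plotted by fold change and p-value among all tested genes.

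**Figure D1:**
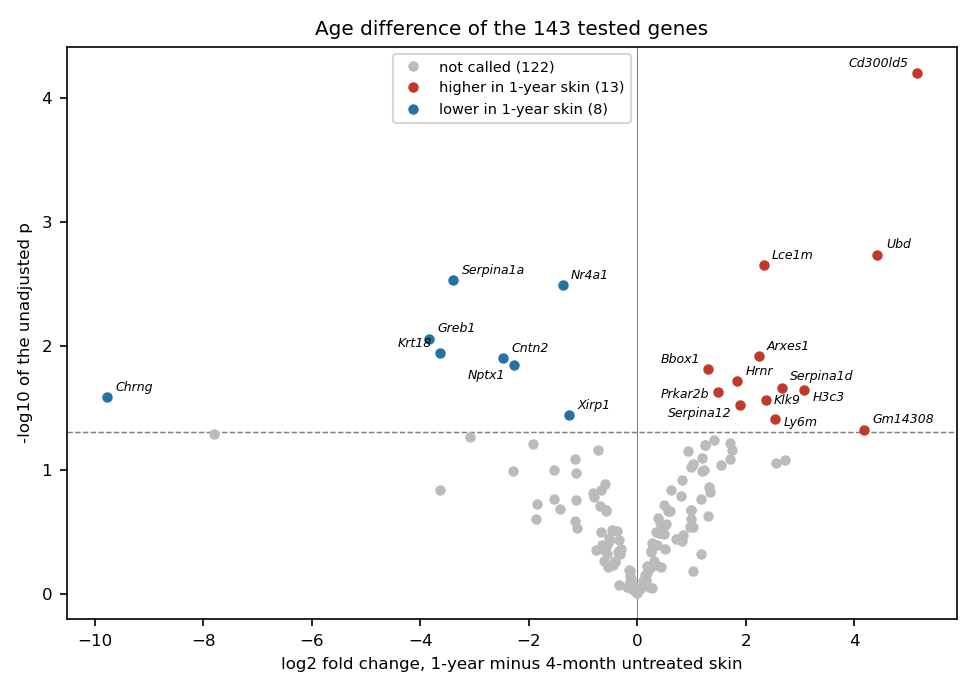
Log2 fold change (1-year-old minus 4-month-old untreated skin, horizontal axis) against −log10 of the unadjusted p-value of edgeR's quasi-likelihood test (vertical axis), one point per tested gene, with the 13 higher DEGs in red, the 8 lower in blue and the dashed line at the p-value threshold. *Cd300ld5* stands highest, and the position of *Chrng* along the horizontal axis is no measure of size, because all 3 1-year-old libraries had no count.

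The calls depended on how libraries were scaled. With TMM factors, which assume that most listed genes do not differ, single genes shifted by a median of −0.25 on the log2 scale, the median of all tested genes went from 0.16 to −0.13, and there were 11 higher and 13 lower DEGs, so that the share of higher genes fell from 61.9% to 45.8%. When libraries were scaled to their summed listed counts, genes shifted by a median of −0.68, the median of all tested genes went to −0.59, and there were 3 higher and 19 lower DEGs (13.6% higher), with 10 calls lost (*Arxes1*, *Bbox1*, *Gm14308*, *H3c3*, *Hrnr*, *Klk9*, *Ly6m*, *Prkar2b*, *Serpina12* and *Serpina1d*). Differences below are on the scale of library totals, and a gene near 0 changes its sign with the scaling. Leaving out 1-year-old replicate 1 gave 7 higher and 11 lower DEGs, with 7 calls lost (*Bbox1*, *H3c3*, *Hrnr*, *Klk9*, *Ly6m*, *Serpina12* and *Xirp1*) and 4 gained, all lower (*Fosb*, *Fpr2*, *Mmp13* and *Tnc*). Of the 21 DEGs, 9 remained DEGs whichever library was left out: *Cd300ld5*, *Ubd*, *Lce1m*, *Nr4a1*, *Krt18*, *Nptx1*, *Greb1*, *Cntn2* and *Serpina1a*. Of these 9, *Cd300ld5*, *Ubd*, *Greb1*, *Cntn2* and *Nptx1* are genes that passed the filter through one age alone, so their staying among the DEGs is given as a description. All but *Nptx1* and *Cntn2* also remained DEGs under every other alternative tried.

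Among immune genes, *Cd300ld5* differed most clearly between the ages. It belongs to the CD300 family of receptors of myeloid cells and lies on chromosome 11 (GRCm38, 115031486 to 115037769). Its level was 8.12, 5.90 and 10.3 FPKM in 1-year-old replicates 1, 2 and 3, and 0.185, 0.287 and 0.158 FPKM in the 4-month-old replicates. The groups were far apart and did not overlap, with means of 8.11 ± 2.2 and 0.210 ± 0.068 FPKM (SD, n = 3). The 4-month-old values stood on 3.51, 5.94 and 2.92 counts, about the 3 counts taken as the least that can be called seen. The log2 fold change was 5.15 (standard error 0.67, edgeR's adjusted p = 0.00896). It lay between 2.88, on the compressed scale of log2(FPKM + 1), and 6.26 over the alternatives, but the adjusted p rose to 0.0858, 0.102 and 0.102 without 1-year-old replicate 3, 4-month-old replicate 2 and 4-month-old replicate 3, to 0.0685 when scaled to the summed listed counts and to 0.0526 with a replicate block. All of its counts are fractions, and how fragments were assigned between it and similar genes is uncertain. Summed with its listed relative *Cd300ld2*, the counts were 174, 116 and 221 at 1 year and 5.53, 7.99 and 2.92 at 4 months, and the ages did not overlap. Other copies were not analysed here.

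Of the 58 macrophage, dendritic cell and monocyte genes sought, 6 were listed and 4 tested, and *Cd300ld5* was the DEG among them (9.09% of all tested genes were higher DEGs). The remaining 3 did not pass the test on library totals. *Itgam*, the integrin chain CD11b of myeloid cells, had 6.65, 3.49 and 6.34 FPKM at 1 year and 7.40, 7.07 and 6.24 at 4 months, a log2 fold change of −0.33 (standard error 0.34). When scaled to the summed listed counts it was a lower DEG (−1.06). *Ncf1*, a subunit of the phagocyte NADPH oxidase, had −0.32 (0.43) and −1.11, not a DEG, on that scaling. *Lilrb4a*, an inhibitory receptor, was seen in 1 library of each age, and its fitted value went from 0.28 to −6.30 without 1-year-old replicate 1.

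*Ubd*, the ubiquitin-like protein FAT10 that is induced by interferon gamma and tumour necrosis factor, was higher in 1-year-old skin. It had 3.42, 4.55 and 16.2 FPKM at 1 year against 0.241, 0.708 and 0.149 at 4 months. The groups did not overlap, although 1-year-old replicate 3 was far above the other 1-year-old libraries, and the log2 fold change was 4.43 (standard error 0.96, edgeR's adjusted p = 0.093). It was the 1 DEG among the 5 genes of interferon response and antigen presentation that were listed and tested, of 58 sought, against 9.09% of all tested genes, and in 2 of the 5 the groups did not overlap (14.0% of all tested genes). All 5 lay above 0, with a median log2 fold change of 1.03 against 0.16 over all tested genes, and 4 of the 5 had been listed as higher in treated 4-month-old skin. Without 1-year-old replicate 1 the median of the 5 was 0.38 with 5 above 0, and without 1-year-old replicate 2 *Oas1f* and *Ifit2* became DEGs, at 1.34 and 0.88. *Raet1e*, a ligand of the receptor NKG2D, was even among the 1-year-old animals, at 0.872, 0.987 and 0.874 FPKM. It had 0.256, 0.518 and 0.353 at 4 months, and the groups did not overlap, but it was not a DEG (log2 fold change 1.24, standard error 0.67). A second ligand, *H60c*, had 0.81 (0.53), the antiviral sensor gene *Oas1f* 1.03 (0.53) and *Ifit2*, which binds viral RNA, 0.57 (0.42). These 3 were highest in 1-year-old replicate 1, and without it *H60c* had 0.23, *Oas1f* 0.38 and *Ifit2* 0.34. When scaled to the summed listed counts, 3 of the 5 stayed above 0, with a median of 0.16.

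Chemokines and cytokines gave 0 DEGs by edgeR among 6 tested genes of 9 listed, where 14.7% of all tested genes were DEGs in either direction. Of the 6, 5 were above 0, as were 77 of the 143 tested genes. Their median log2 fold change was 0.76, against 0.16 over all tested genes. Listed as higher in treated 4-month-old skin were 5 of the 6, and 70 of the 95 tested genes listed so were above 0. None of the 6 was past an unadjusted p of 0.05. Of the 6, 5 were highest in 1-year-old replicate 1, without which 4 were above 0 (median 0.23), and when scaled to the summed listed counts 2 were (median −0.13). *Il18*, a cytokine that keratinocytes store, had 36.5, 11.3 and 17.5 FPKM at 1 year and 8.64, 15.9 and 9.97 at 4 months, with overlapping groups (0.99, standard error 0.52). Its value was 0.34 without 1-year-old replicate 1 and 1.32, a DEG, without replicate 2. *Ccl6*, a chemokine of myeloid cells, had a log2 fold change of 0.50 (0.48), and *Tslp*, a keratinocyte cytokine of allergic inflammation, 0.71 (0.73). *Ccl20*, which attracts cells with the receptor CCR6, had 1.03 (0.91). Without 1-year-old replicate 1 *Ccl6* had 0.11, *Tslp* 0.46 and *Ccl20* 0.50. Of the 48 tested genes listed as lower in treated 4-month-old skin, 7 were above 0. The group of 3 neutrophil and mast cell genes, all listed as lower, lay below 0 without a DEG on library totals. In it *Fpr2*, a receptor for formylated peptides, had 0.647, 0.088 and 0.197 FPKM at 1 year and 0.909, 1.63 and 0.860 at 4 months, groups that did not overlap (−1.92, standard error 0.88). It became a lower DEG without 1-year-old replicate 1 (−2.92), with TMM factors (−2.32) and when scaled to the summed listed counts (−2.91). *Ms4a2*, a chain of the IgE receptor of mast cells, had −1.14 (0.57) and was a lower DEG at −1.43 and −1.98 on those other scalings and at −1.52 without 4-month-old replicate 1, and *Mmp9*, a gelatinase, −0.10 (0.52).

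The epidermal differentiation and cornified envelope genes were the group with the most DEGs. Of the 78 genes sought, 17 were listed and 15 tested, and 5 of the 15 were higher DEGs (9.09% of all tested genes were), namely *Lce1m*, *Serpina12*, *Hrnr*, *Klk9* and *Ly6m*. All 15 had a log2 fold change above 0, between 0.26 and 2.54 with a median of 1.41, and in 6 of the 15 the groups did not overlap (14.0% of all tested genes). All 15 had been listed as higher in treated 4-month-old skin. Of the 95 tested genes listed so, 70 were above 0 with a median of 0.44, and of all 143 tested genes 77 were, with a median of 0.16. This rested largely on single animals. All 15 genes were highest in 1-year-old replicate 1 and all 15 were lowest in 4-month-old replicate 3, so they are not 15 separate observations. Without 1-year-old replicate 1 the median was 0.69 with 15 above 0 and 1 DEG, and without 4-month-old replicate 3 it was 1.04 with 1 DEG. Without 4-month-old replicate 2 there was also 1 DEG. With TMM factors 14 of the 15 were above 0 (median 1.01, 4 DEGs), and when scaled to the summed listed counts, to which these genes contribute much, 14 (median 0.56, 1 DEG). The summed level of the 15 genes was 4235, 1211 and 1548 FPKM at 1 year and 1427, 1110 and 543 FPKM at 4 months, so that 1-year-old replicate 2 lay below 4-month-old replicate 1. The share of keratinocytes in a sample was not tested as a part of this, since no basal keratinocyte marker was listed.

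**Figure D2:**
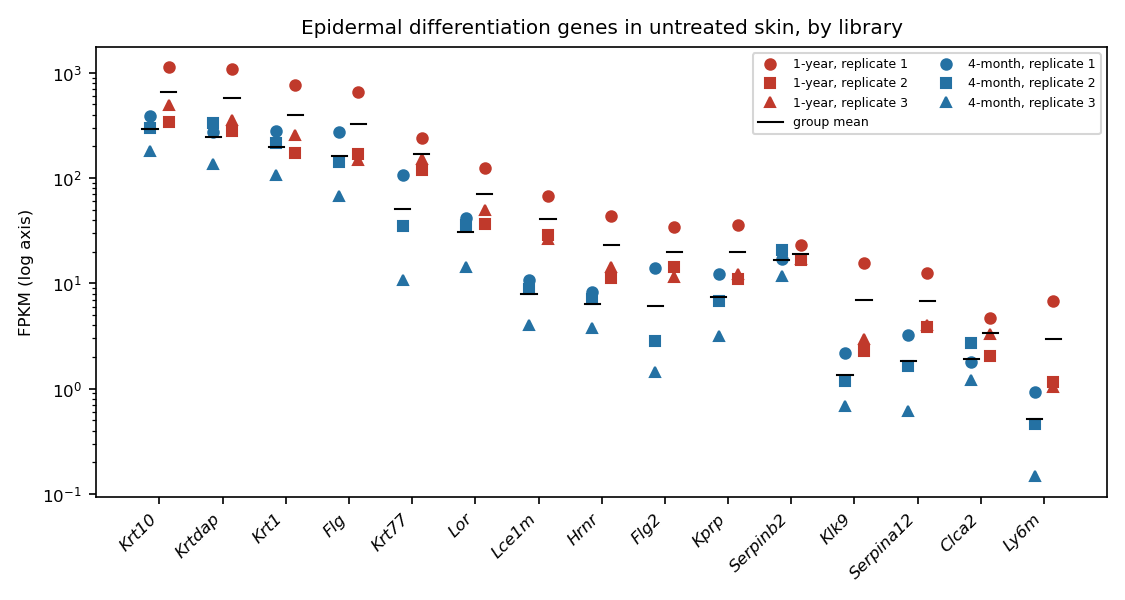
FPKM (log axis) of the 15 tested epidermal differentiation genes in each untreated library, 1-year-old in red and 4-month-old in blue, with the symbol showing the replicate and the black line the group mean. The red circle (1-year-old replicate 1) is the highest and the blue triangle (4-month-old replicate 3) the lowest point of every gene.

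*Lce1m*, a late cornified envelope protein, was the epidermal gene that remained a DEG whichever library was left out. It lies in the complex on chromosome 3 (GRCm38, 93017810 to 93019060). It had 67.0, 28.9 and 26.4 FPKM at 1 year and 10.8, 8.82 and 4.01 at 4 months. Every 1-year-old library was above the highest 4-month-old library, and the log2 fold change was 2.33 (standard error 0.52, edgeR's adjusted p = 0.093). *Hrnr* (hornerin, a relative of filaggrin and its neighbour) had 43.3, 11.1 and 14.3 FPKM at 1 year and 8.22, 7.06 and 3.77 at 4 months, without overlap. Its log2 fold change was 1.85 (0.63). It was no longer a DEG without 1-year-old replicate 1 (1.00) or 4-month-old replicates 2 (1.93) or 3 (1.59).

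The protease *Klk9*, a kallikrein, and the inhibitor *Serpina12* (vaspin), which is known to inhibit another kallikrein of the epidermis, were both higher DEGs. *Klk9* had 15.7, 2.26 and 2.97 FPKM at 1 year and 2.19, 1.17 and 0.687 at 4 months, so that 1-year-old replicate 2 was hardly above 4-month-old replicate 1. *Serpina12* had 12.7, 3.87 and 4.00 FPKM at 1 year and 3.25, 1.65 and 0.612 at 4 months. On the log2 scale *Klk9* differed by 2.37 (0.88) and *Serpina12* by 1.89 (0.72). *Ly6m*, of the Ly6 family, had 6.78, 1.15 and 1.03 FPKM at 1 year and 0.929, 0.460 and 0.147 at 4 months (2.54, standard error 1.03). In these 3 genes 1-year-old replicate 1 was more than 3 times the other 1-year-old libraries. Without it *Klk9* had 0.95, *Serpina12* 1.10 and *Ly6m* 1.09, and none was a DEG, nor were they without 4-month-old replicate 2 or 3.

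The structural genes did not pass the test among the 143 filtered genes with all 6 libraries, but some did under other settings. The suprabasal keratin *Krt10* had 1123, 340 and 495 FPKM at 1 year and 385, 301 and 182 at 4 months, with overlapping groups (log2 fold change 1.33, standard error 0.81). Its partner *Krt1* had 0.99 (0.80), and *Krtdap*, a secreted protein of differentiating keratinocytes, 1.19 (0.64). *Flg*, which encodes filaggrin, the protein that bundles keratin, had 660, 169 and 148 FPKM at 1 year and 273, 141 and 67.2 at 4 months (0.99, standard error 0.72), and 0.02 without 1-year-old replicate 1. *Krt77*, a keratin of sweat gland ducts and upper epidermis, had 241, 119 and 152 FPKM against 106, 34.9 and 10.7, which did not overlap (1.75, standard error 0.83). *Flg2* had a log2 fold change of 1.72 (0.86), *Kprp* 1.41 (0.63) and *Lor* 1.2 (0.60). Without 1-year-old replicate 1 the values fell to 0.69 for *Krt10*, 0.11 for *Krt1*, 0.34 for *Krtdap* and 1.42 for *Krt77*. *Flg2* fell to 1.08, *Kprp* to 0.66 and *Lor* to 0.50, and none of these genes was a DEG. Without 4-month-old replicate 1, *Flg2* (3.24), *Krt77* (2.90) and *Kprp* (1.99) became DEGs, as did *Lor* (1.5) and *Kprp* (1.69) without 1-year-old replicate 2 and *Kprp* (1.65) without 1-year-old replicate 3. With all 6 libraries, edgeR without the filter on low counts called *Krt77*, *Flg2*, *Kprp*, *Krt10*, *Lor* and *Krtdap*, and with a replicate block *Flg2*, *Krt77* and *Kprp*. DESeq2 on derived totals called *Krt10*, *Krt77*, *Flg2* and *Kprp*. *Flg*, *Krt1* and *Serpinb2* were called under none of the settings tried. *Serpinb2*, an inhibitor of plasminogen activators, was about level, with 18.8 ± 3.54 FPKM at 1 year and 16.5 ± 4.39 at 4 months (SD, n = 3).

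Among the lower DEGs, *Nr4a1* had the smallest standard error. It encodes an orphan nuclear receptor that is induced within minutes by many stimuli, and it lies on chromosome 15 (GRCm38, 101254269 to 101274795). It had 6.06, 5.99 and 5.11 FPKM at 1 year and 11.7, 13.0 and 19.6 at 4 months. The 1-year-old libraries were close to each other and all below the 4-month-old ones, and the log2 fold change was −1.37 (standard error 0.33, edgeR's adjusted p = 0.093). It was the 1 DEG among 6 tested AP-1 and immediate early genes, where 5.59% of all tested genes were lower DEGs. All 6 had been listed as higher in treated 4-month-old skin. All 6 were below 0, as were 66 of the 143 tested genes, with a median log2 fold change of −0.38 against 0.16 over all tested genes. The median of the 6 was −0.79 without 1-year-old replicate 1 and −1.13 when scaled to the summed listed counts. *Fos*, an AP-1 subunit, had 11.1, 3.43 and 2.52 FPKM at 1 year and 6.22, 6.24 and 4.64 at 4 months, a log2 fold change of −0.01 (0.58). Without 1-year-old replicate 1 it was −0.94, and when scaled to the summed listed counts −0.95, neither a DEG. *Fosb* had −1.14 (0.93), and −2.45 without that library, a lower DEG. *Atf3*, a stress-induced factor of the same class, had −0.46 (0.42), the phosphatase gene *Dusp1* −0.29 (0.36) and *Klf2* −0.14 (0.29). With all 6 libraries on library totals these 5 did not pass the test and their groups overlapped. When scaled to the summed listed counts, *Fosb* (−2.28) and *Dusp1* (−1.06) were lower DEGs.

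*Serpina1a*, an isoform of alpha-1-antitrypsin, an inhibitor of neutrophil elastase, was lower in 1-year-old skin, and *Serpina1d*, another isoform, was higher. *Serpina1a* had 0.214, 0.12 and 0.598 FPKM at 1 year and 3.38, 4.23 and 2.06 at 4 months (log2 fold change −3.39, standard error 0.80, edgeR's adjusted p = 0.093). *Serpina1d* had 0.344, 0.425 and 1.10 FPKM at 1 year and 0.038, 0.098 and 0.150 at 4 months (2.67, standard error 0.94), and was no longer a DEG without 1-year-old replicate 3 (1.97) or 4-month-old replicate 1 (2.27), nor with the 4-month-old areas summed per mouse (0.11) or both areas summed at both ages (0.20). In treated skin its log2 fold change was −0.55. All counts of both genes are fractions, and how fragments were split between them is uncertain. Their summed counts were 18.2, 17.5 and 57.8 at 1 year and 104, 144 and 75 at 4 months, which did not overlap and were lower at 1 year.

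*Krt18*, a keratin of simple epithelia that in skin is found in Merkel cells and sweat glands, was lower in 1-year-old skin. It had 0.030, 0.933 and 0.169 FPKM at 1 year, on 1, 31 and 6 counts, and 3.09, 6.71 and 4.27 at 4 months (log2 fold change −3.63, standard error 1.11). *Greb1*, a target of the oestrogen receptor, had 2, 7 and 5 counts at 1 year and 29, 17 and 145 at 4 months (−3.84, standard error 1.11). Without 4-month-old replicate 3 its log2 fold change was −2.32. *Cntn2*, an axonal adhesion protein, had 4, 7 and 10 counts at 1 year and 25, 59 and 30 at 4 months (−2.47, standard error 0.77), and the synaptic pentraxin *Nptx1* had 9 in each 1-year-old library and 44, 62 and 22 at 4 months (−2.27, standard error 0.72). The groups of these 4 genes did not overlap, but all but *Krt18* were under 1 FPKM in every library. *Cntn2* was the lower DEG among 4 tested neuronal genes of 11 listed (5.59% of all tested genes were lower DEGs). The serotonin receptor *Htr5b* (1.18, standard error 0.79), *Kctd4* of the KCTD family (1.25, 0.58) and the synaptic *Lrrtm4* (2.56, 1.32) were not called with all 6 libraries. *Kctd4* became a DEG without 1-year-old replicate 2 (1.54) but had 0.67 without 1-year-old replicate 1, where it was highest. *Lrrtm4* became a DEG without 4-month-old replicate 2 (4.74).

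Striated muscle genes gave 2 lower DEGs among 3 tested (5.59% of all tested genes were lower DEGs), and both were highest in 4-month-old replicate 2. *Chrng*, the gamma subunit of the fetal acetylcholine receptor of muscle, had no count in any 1-year-old library and 1, 338 and 1 counts at 4 months. That library held 99.4% of the 4-month-old counts, and the other 4-month-old libraries were themselves under 3 counts, so no fold is given. The gene was not a DEG without 1-year-old replicate 2. *Xirp1*, an actin-binding protein of damaged and growing muscle fibres, had 1.63, 2.34 and 4.97 FPKM at 1 year and 4.45, 9.92 and 7.08 at 4 months, with overlapping groups (−1.26, standard error 0.50). *Xirp1* was not a DEG without 1-year-old replicate 1 (−0.97) or 2 (−1.12), or without 4-month-old replicate 2 (−0.95) or 3 (−1.27). *Smtnl2* had −0.58 (0.43).

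In fat and metabolism, *Bbox1*, the last enzyme of carnitine synthesis, was higher in 1-year-old skin. It had 14.4, 5.18 and 7.41 FPKM at 1 year and 2.97, 3.38 and 2.98 at 4 months, without overlap (log2 fold change 1.31, standard error 0.42). The 4-month-old libraries were close to each other (3.11 ± 0.235 FPKM, SD, n = 3). The call was lost without 1-year-old replicate 1 (0.87), without 4-month-old replicate 3 (1.15) and when scaled to the summed listed counts (0.50). It was the DEG of 2 tested adipocyte and sebaceous genes (9.09% of all tested genes were higher DEGs), the other being the medium-chain acyl-CoA synthetase *Acsm3* at −0.66 (0.41). *Prkar2b*, a regulatory subunit of protein kinase A that is abundant in fat and nerve, had 78.1, 48.6 and 147 FPKM at 1 year and 34.8, 24.8 and 39.0 at 4 months (1.49, standard error 0.53). *Arxes1*, which takes part in adipocyte differentiation, had 6.54, 4.29 and 12.2 FPKM at 1 year and 3.07, 1.04 and 0.767 at 4 months (2.24, standard error 0.69). All counts of *Arxes1* are fractions. *Arxes1* was no longer a DEG without 1-year-old replicate 3 (1.73) or 4-month-old replicate 2 (2.0), and *Prkar2b* without 1-year-old replicate 3 (0.96) or 4-month-old replicate 1 (1.53) or 2 (1.32). Scaling to the summed listed counts also ended both calls (*Arxes1* 1.68, *Prkar2b* 0.81). Both genes were highest in 1-year-old replicate 3 and lowest among the 1-year-old libraries in replicate 2.

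The remaining higher DEGs were *H3c3*, a replication-dependent histone gene, and *Gm14308*, a predicted zinc finger gene. *H3c3* had 32, 18.7 and 13 counts at 1 year and 0, 3.86 and 3 at 4 months (log2 fold change 3.08, standard error 1.09), was no longer a DEG without 1-year-old replicate 1 (2.67), and its transcript is a histone mRNA of a kind that usually lacks the poly(A) tail on which the libraries were selected. *Gm14308* had 51.9, 409 and 3.11 counts at 1 year and 16.1, 0 and 8.27 at 4 months, with overlapping groups, and the call was lost without any one of 4 libraries. How fragments were split between it and similar genes is uncertain. Together with the listed *Gm14434* the counts were 557, 699 and 348 at 1 year and 32.8, 0 and 151 at 4 months, so the sums did not overlap.

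Genes of the extracellular matrix list did not pass the test with all 6 libraries. Of the 92 sought, 5 were listed and tested, the synaptic *Lrrtm4* being one of them, 2 above and 3 below 0, with a median log2 fold change of −0.10 and 0 DEGs by edgeR (none past an unadjusted p of 0.05). The median was −0.54 with 1 above 0 without 1-year-old replicate 1, and −0.34 without 4-month-old replicate 3. When scaled to the summed listed counts it was −0.93, with 1 above 0. *Aspn* (asporin, a small proteoglycan) had 95.3, 70.7 and 49.5 FPKM at 1 year and 42.1, 51.8 and 104 at 4 months, a log2 fold change of 0.12 (0.49). *Tnc* (tenascin C) had −0.55 (0.62), and was a lower DEG without 1-year-old replicate 1 (−1.48) and when scaled to the summed listed counts (−1.49). The collagenase *Mmp13* had −1.87 (1.5), with 161, 4 and 20 counts at 1 year and 14, 598 and 70 at 4 months. It had −4.25, a lower DEG, without 1-year-old replicate 1 and 0.43 without 4-month-old replicate 2. The main fibrillar collagen genes were not in the table. Of the 27 genes that the published account names, 21 were listed and 15 tested, 5 above and 10 below 0, and the DEGs were *Lce1m*, higher, and *Chrng*, lower, where 14.7% of all tested genes were DEGs in either direction.

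Hair follicle, lymphocyte and senescence genes were hardly covered. *Jchain*, the 1 tested gene of 10 listed immunoglobulin and plasma cell genes, had 50, 12 and 73 counts at 1 year and 11, 52 and 119 at 4 months (log2 fold change −0.53). *Ly9*, of 3 listed T cell genes, had −0.40. *Krtap19-4*, a hair keratin-associated protein, had 170 of its counts in 4-month-old replicate 1 and no more than 13 in any other library. *Mmp13* was the 1 tested gene of the list of wound keratinocyte genes and of the list of ageing genes. No heat shock gene of the list was in the table, and the 1 listed gene of the epidermal lipid barrier was too low to test.

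The treated areas of the same mice gave a second age comparison, on other libraries but the same animals, and it was not independent of the selection. There 18 of the 143 genes were DEGs (12.6%), 7 of them higher (4.9% of the tested genes) and 11 lower (7.69%). Of the 21 DEGs of untreated skin, 8 were DEGs in the same direction in treated skin: *Cd300ld5*, *Ubd*, *Arxes1*, *Prkar2b*, *Gm14308*, *Nr4a1*, *Krt18* and *Serpina1a*. The treated 4-month-old libraries also took part in choosing the genes. The direction of listing favoured the treated-skin difference found for *Cd300ld5*, *Gm14308*, *Nr4a1* and *Serpina1a*. It went against that found for *Ubd*, *Arxes1*, *Prkar2b* and *Krt18*. *Cd300ld5* had 10.3, 9.53 and 7.66 FPKM in treated 1-year-old skin and was listed at 0 in all 3 treated 4-month-old libraries. Summed with *Cd300ld2* there were 9.0, 4.05 and 6.02 counts in those libraries, close to untreated 4-month-old skin, and 237, 224 and 167 in treated 1-year-old skin. *Ubd* had 19.2, 47.0 and 10.4 FPKM against 1.70, 0.735 and 1.15 (log2 fold change 4.41, standard error 0.71, edgeR's adjusted p = 0.0167). *Serpina1a* had 0.352, 1.08 and 0.171 FPKM against 9.23, 7.48 and 5.92 (−3.81, standard error 0.71, edgeR's adjusted p = 0.0284). *Nr4a1* had 7.14, 7.33 and 9.47 FPKM against 48.7, 13.7 and 28.5 (−1.91, standard error 0.52). *Nptx1* was opposite in treated skin, at 3.63 (1.57), with 1-year-old replicate 1 at 3.89 FPKM and the other treated libraries of both ages at 0.364 or less.

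**Figure D3:**
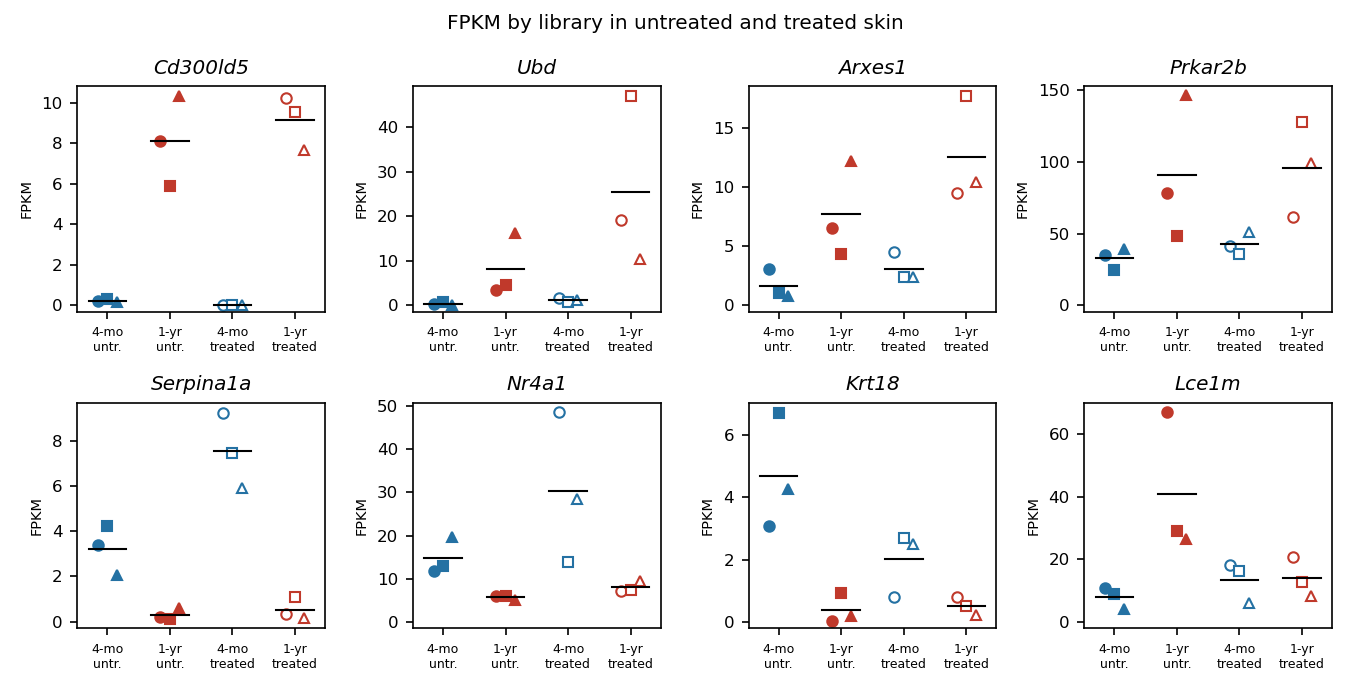
FPKM of 8 DEGs by library, 4-month-old in blue and 1-year-old in red, untreated skin with filled and treated skin with open symbols, circle, square and triangle for replicates 1, 2 and 3 (untreated and treated replicates of 1 number come from the same mouse) and black lines for group means. The ages are apart in both areas for *Cd300ld5*, *Ubd* and *Serpina1a*, whereas for *Lce1m* they are apart in untreated skin and overlap in treated skin.

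The epidermal genes did not carry their age difference into treated skin. There 14 of the 15 were below 0, with a median log2 fold change of −0.62. All 15 had been listed as higher in these treated 4-month-old libraries, and a high value there moves both the listing and this difference. Of the 95 tested genes listed so, 34 kept the sign of their age difference in treated skin. The summed level was 1415, 953 and 549 FPKM in treated 1-year-old skin and 1861, 2288 and 840 in treated 4-month-old skin. Within a mouse the sum was thus lower in the treated area in 3 of 3 1-year-old mice and higher in 3 of 3 4-month-old mice. The direction at 4 months follows from how the genes were listed and is no separate result. The difference between both age comparisons was tested in a model of the 12 libraries that held the mouse as a block, and 13 of the 143 genes (9.09%) had an adjusted p under 0.05 in edgeR, among them 8 of the 15 epidermal genes. This test contains the treatment difference at 4 months for which the genes had been listed. For *Lce1m* the age difference in treated skin was lower by 2.11 on the log2 scale (standard error 0.35, edgeR's adjusted p = 0.0076), with 20.7, 12.7 and 8.27 FPKM in treated 1-year-old and 18.1, 16.1 and 6.0 in treated 4-month-old skin.

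**Figure D4:**
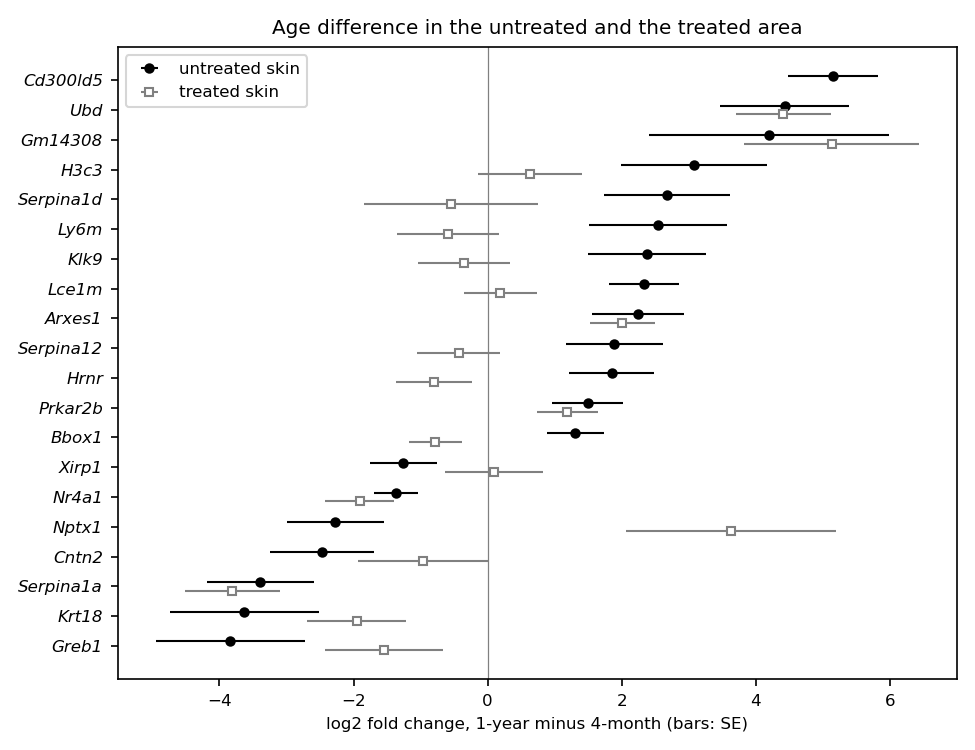
Log2 fold change between the ages (1-year-old minus 4-month-old) with its standard error for the DEGs of untreated skin except *Chrng*, in untreated (filled circles) and treated skin (open squares, not drawn for *Cd300ld5*, which had no count in treated 4-month-old skin). *Ubd*, *Arxes1*, *Prkar2b*, *Nr4a1* and *Serpina1a* lie close together in both areas, whereas *Hrnr*, *Serpina12* and *Bbox1* lie on opposite sides of 0.

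Levels of untreated 1-year-old skin were also set beside treated 4-month-old skin. Over all tested genes, 33 of the 95 listed as higher in treated 4-month-old skin had a 1-year-old mean above that treated level and 62 below, and of the 48 listed as lower, 14 were below and 34 above. The DEGs, which were chosen for a large age difference, lay further out. Of the 13 higher DEGs, 11 were higher in treated than in untreated 4-month-old skin, and 12 had a 1-year-old mean above the treated 4-month-old mean. *Lce1m*, for example, had means of 7.89 FPKM in untreated and 13.4 in treated 4-month-old skin and 40.8 in untreated 1-year-old skin. *Serpina1d* was the exception, at 0.622 FPKM at 1 year and 1.01 in treated 4-month-old skin. All 8 lower DEGs had a 1-year-old mean below both 4-month-old means, and 5 of the 8 were lower in treated than in untreated 4-month-old skin. *Nr4a1*, *Serpina1a* and *Xirp1* were higher in treated 4-month-old skin. *Nr4a1*, for example, had means of 14.8 FPKM in untreated and 30.3 in treated 4-month-old skin and 5.72 at 1 year.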

How the data were processed

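The authors sequenced oligo(dT)-selected libraries and deposited, per library, expected counts of fragments per gene, not normalized, and FPKM, normalized by the authors to transcript length and library size. Their processing notes name Bowtie2 2.2.8 and GRCm39; the counting program is not given in the sources used here. Of the counts, 9.52% are not whole. Library totals were derived from count, FPKM and length of 8 single-transcript genes (GENCODE M21, GRCm38, to which 464 of 465 genes were matched by identifier) and agreed over genes within 0.014%. Gene coordinates are those of that annotation.

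Rounded counts of the 6 untreated libraries entered edgeR 4.0.16 (R 4.3.3, functions glmQLFit and glmQLFTest), with derived totals, age as the only term, 4 residual degrees of freedom and a common biological coefficient of variation of 0.669. Genes needed a mean count of 10. DEGs differed 1.2-fold or more with p under 0.05 before adjustment, the rule of the study's methods; adjustment was by Benjamini and Hochberg over the 143 tested genes. A standard error is that of the log2 fold change and stands in parentheses after it. Since the table is a selection, neither the shared spread nor the adjustment is that of all transcribed genes. A level of 3 counts was the least taken as seen, which covers counting error only.

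Genes named were, per direction, up to 12 DEGs with groups that did not overlap and a mean of at least 1 FPKM, ranked by fold change; genes past the adjustment; DEGs and up to 3 other genes of each list; and genes named in the published account. Other DEGs, and list genes beyond these, were named after their values were seen. The members and lists were chosen with earlier results of these data known.

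Alternatives were TMM, the sum of listed counts, DESeq2 1.42.0 on derived totals or its own size factors, no filter, filterByExpr, limma 3.58.1 on log2(FPKM + 0.5), + 0.1 and + 1, all 12 libraries in one fit, a replicate block, a fold change of 2, 4-month-old areas summed per mouse, and leaving out each library; both areas summed at both ages was added after seeing the data. On simulated counts of 465 genes, 200 of them changed 4-fold at a coefficient of variation of 0.5, the procedure called 96.6% of the 59 changed genes among 146 that passed the filter and 4.6% of unchanged genes. The data had a larger common coefficient of variation (0.669), a selected gene table and 1 library that stood apart, none of which was simulated. Those rates are therefore not the rates for these data. Tables and figures used Python 3.11.15, pandas 2.3.3, numpy 2.4.6 and matplotlib 3.10.9. The functional annotation columns of the table were not used.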

Additional observations from a re-analysis of the deposited data

Results flagged for a closer look

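For 13 of the 143 tested genes the age difference in treated skin was not that in untreated skin, by edgeR's test of the difference with the mouse as a block (adjusted p under 0.05, 39 genes at an unadjusted p under 0.05). The test contains the treatment difference at 4 months for which the table had been selected. In what follows each value is the age difference (1-year-old minus 4-month-old, log2) in treated skin minus that in untreated skin.

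Among the epidermal genes it was −3.26 for *Krt77*, −3.22 for *Flg2*, −2.87 for *Ly6m*, −2.54 for *Hrnr*, −2.36 for *Serpina12*, −2.11 for *Lce1m*, −1.98 for *Kprp* and −1.64 for *Lor*. In *Krt77* the age difference went from 1.75 in untreated to −1.32 in treated skin, and in *Flg2* from 1.72 to −0.94. The difference was −4.38 for the chemokine gene *Ccl20*, which had 0.244, 0.108 and 0.051 FPKM in treated 1-year-old skin and 3.27, 2.13 and 0.259 in treated 4-month-old skin. It was −2.29 for *Kctd4* and −2.03 for *Bbox1*.

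The fitted values of 5.40 for *Cd300ld5* and 9.05 for *Chrng* depend on the small count that the model adds, since *Cd300ld5* had no count in treated 4-month-old skin and *Chrng* none in untreated 1-year-old skin. They give no measure of size. In counts summed with its copy *Cd300ld2*, 4-month-old skin had 5.53, 7.99 and 2.92 without and 9.0, 4.05 and 6.02 with treatment. The part of fragment assignment between these genes in the call for *Cd300ld5* was not tested.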

How the results depend on the processing

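The comparison has 3 animals per age and 4 residual degrees of freedom, and a gene of a few counts, such as *Greb1* or *H3c3*, is limited by depth. Nothing in the labels says how animals were spread over days, so p-values measure the spread between these mice. Against 13 higher, 8 lower, 5 epidermal and 1 adjusted calls, TMM gave 13 lower. The sum of listed counts gave 3 higher, 19 lower, 1 epidermal and 0 adjusted calls in edgeR (22 DEGs at the unadjusted cutoff). DESeq2 gave 21 higher, 9 epidermal and 12 adjusted calls on derived totals and 7 adjusted on its own size factors. Without a filter, with all 465 genes in the fit, there were 47 higher, 29 lower, 11 epidermal and 11 adjusted. limma gave 5 adjusted calls at each pseudocount (0.5, 0.1 and 1) and 8 epidermal at 0.1. With all 12 libraries in one fit there were 3 adjusted, and with the 4-month-old areas summed per mouse 3 adjusted and 2 epidermal. With both areas summed at both ages, chosen after seeing the data, there were 7 higher, 3 adjusted and 1 epidermal, and *Nptx1* turned from −2.27 to 1.73. Leaving out each library gave 7 to 26 higher, 8 to 11 lower, 1 to 8 epidermal and 0 to 1 adjusted calls. Higher calls were 7 without 1-year-old replicate 1, 8 without 4-month-old replicate 2 or 3, and 26 without 1-year-old replicate 2. The cause of these shifts was not tested.

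Replicate numbers are shared between the ages but belong to different mice, and the deviations of same-numbered libraries correlated at 0.06, −0.33 and 0.28, so the numbers do not pair the samples. With a replicate block there were 8 epidermal DEGs and 0 adjusted calls in edgeR (17 higher and 11 lower DEGs at the unadjusted cutoff).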

Other observations

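Of the 143 tested genes, 26 were highest in 4-month-old replicate 2 and 45 in 1-year-old replicate 1, the latter including 5 of the 6 chemokines and cytokines. The untreated skin of that 4-month-old mouse held nearly all *Chrng* counts. It was also highest in 3 immune and remodelling genes that were picked from their values. *Acod1*, the enzyme that makes itaconate in activated macrophages, had 90 counts there and 3 or 4 in each of the other 5 untreated libraries. *Ccl4*, a chemokine of activated leukocytes, had 92 counts there, against 19 in 1-year-old replicate 1 and at most 7 elsewhere. *Mmp13* had 598 counts, against 161 in 1-year-old replicate 1 and at most 70 elsewhere. On library totals with all 6 libraries none of these 3 genes was a DEG. *Acod1* was a lower DEG with TMM factors (log2 fold change −3.26), when scaled to the summed listed counts (−3.69) and without 4-month-old replicate 1 (−3.62) or 3 (−3.60), and had −0.05 without 4-month-old replicate 2. *Mmp13* was a lower DEG without 1-year-old replicate 1 (−4.25).

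Among the genes too low to test, 21 had counts in all 3 1-year-old and in no 4-month-old library, and 8 had the reverse, with at most 22.9 counts in any library. *Kcnh7*, a voltage-gated potassium channel, had 10.2, 11.1 and 10.1 counts at 1 year, and *Mug1*, a liver protease inhibitor, 6, 4 and 8. *Ugt1a9*, a glucuronosyltransferase, had 6.21, 3.09 and 6.26 counts at 4 months. These genes were picked from their values, and many of them had 1 or 2 counts in a library, under the 3 counts taken as the least that is seen.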
